A study of Mus musculus with 16 samples.

Results

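Wnt proteins are secreted lipid-modified ligands that bind Frizzled receptors, and the cell also secretes antagonists that hold them off. Described here are 10 genes of the mouse heart, of which 4 encode ligands (Wnt5a, Wnt9a, Wnt2b and Wnt11) and 6 encode secreted antagonists (Sfrp1, Sfrp2, Sfrp5, Frzb, Dkk3 and Wif1). They were taken by gene symbol from a deposited table of 22372 protein-coding genes, and all 10 were present. The table came from RNA-seq of 16 libraries, each from a piece of ventricle of a different C57BL/6J mouse aged 10 to 12 weeks at the start, with 4 mice in each of 4 groups.

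Transverse aortic constriction (TAC) ties a suture around the aortic arch and loads the left ventricle with pressure, and the sham operation leaves the suture out. THZ1 blocks Cdk7, Cdk12 and Cdk13 by a covalent bond; these kinases phosphorylate RNA polymerase II. Sham-Veh mice had the sham operation and vehicle, Sham-THZ1 mice the sham operation and THZ1, TAC-Veh mice the constriction and vehicle, and TAC-THZ1 mice the constriction and THZ1. Injections were intraperitoneal and ran from day 1 to day 60 after surgery, and the labels give the THZ1 dose as 10 mg/kg with 2 doses a day. The labels name no transgene or engineered allele in any group. The drug reached the whole animal, so cells of every kind in the piece could respond to it.

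In the canonical branch, a Wnt ligand bound to Frizzled and Lrp5 or Lrp6 stabilises beta-catenin, which enters the nucleus and drives genes such as Axin2 together with Tcf/Lef factors. Wnt5a and Wnt11 are best known for the other branches, which act on cell polarity and calcium. Sfrp proteins and Frzb carry a domain like that of Frizzled and bind Wnt ligands outside the cell, and Wif1 binds the ligands with a domain of its own. Dkk3 belongs to the Dickkopf family, whose better known members block Lrp5 and Lrp6, and its own effect on Wnt signalling varies with the cell type. The adult ventricle is held to have little canonical Wnt signalling, which is known to be switched on again after injury and overload.

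The values are size-factor normalized counts, in which each library's reads per gene were divided by a factor for its depth. Dividing them back gave 21.4 to 35.8 M (mega) reads per library. On the first principal component TAC-Veh replicates 1 and 2 lay farthest from the sham libraries, at 54.4 and 56.3 against 27.3 and 30.0 for replicates 3 and 4, and TAC-THZ1 replicate 2 lay nearest to them among the constricted hearts. Nppa, a natriuretic peptide gene induced by overload, ran from 49207 to 199788 normalized counts in TAC-Veh and from 2434 to 4544 over the 8 sham libraries. The ventricular label was checked with 6 atrial markers, of which Myl7, Sln and Bmp10 reached at most 6.44 normalized counts in any library. The other 3 were present in every library, with Myl4 at 25.1 to 81.1, Stard10 at 125 to 417 and Nppa as above, so the list as a whole did not stand at 0. A piece of tissue holds many cell types, and in such samples more cells of a type cannot be told apart from more RNA per cell.

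A gene was tested if it had at least 10 normalized counts in at least 4 libraries, which left 13331 genes and 9 of the 10 Wnt genes, all but Wnt2b. All fold changes were computed after adding 1 to each normalized count and taking log2, so those of low genes are understated, and a gene was called higher or lower at an adjusted p under 0.05. With TAC, 8 of the 9 tested members were called, 5 higher and 3 lower, where 45.0% of all tested genes were called, 21.4% higher and 23.6% lower. The members were chosen with earlier results of these data known, so counts of members called, here and below, are no test of the set. Sfrp1, Sfrp2, Frzb, Dkk3 and the ligand Wnt9a rose, Wnt5a, Sfrp5 and Wif1 fell, and Wnt11 had no call. Leaving out any of the 16 libraries gave 7 to 8 calls.

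**Figure D1:**
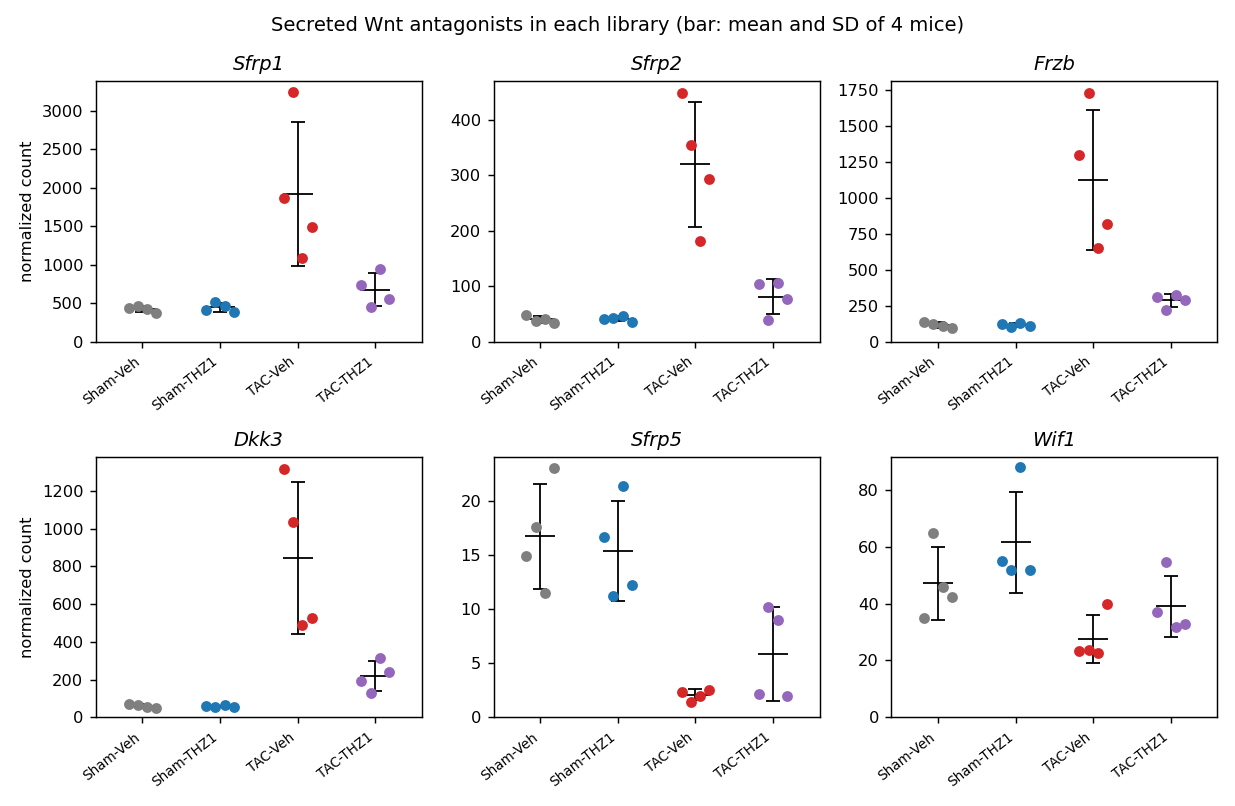
Normalized counts (vertical axes, linear, from 0) of the 6 secreted antagonists in the 16 libraries by group; points are mice, and black bars give the mean and SD of 4 mice. Every TAC-Veh library is above every sham library for Sfrp1, Sfrp2, Frzb and Dkk3, and every TAC-Veh library is below every sham library for Sfrp5.

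Sequences at the start sites of the antagonists are shown for 4 genes, a pair that rose with TAC (Sfrp2 and Frzb) and the pair that fell (Sfrp5 and Wif1), so that the letters near the start can be set beside the counts. They are RefSeq promoters of 300 bases on build GRCm38.p6, from 250 before the start site to 50 after it, on the strand of the gene, and entries were found for 7 of the 10 members. Capitals mark matches, on either strand, to the letters searched. The Tcf/Lef letters were CTTTGAA, with the variants CTTTGAT as well as CTTTGTT, the AP-1 letters were TGANTCA, the Tead letters were GGAATG, the Smad letters were CAGACA and those of the TATA box were TATAAA.
Sfrp2, chr3:83766071-83766370, plus strand: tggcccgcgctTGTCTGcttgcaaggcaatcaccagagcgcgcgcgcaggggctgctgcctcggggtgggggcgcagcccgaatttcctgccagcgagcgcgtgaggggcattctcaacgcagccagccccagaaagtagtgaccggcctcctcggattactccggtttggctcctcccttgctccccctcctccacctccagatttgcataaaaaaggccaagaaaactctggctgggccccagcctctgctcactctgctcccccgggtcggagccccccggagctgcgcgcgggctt
Frzb, chr2:80447347-80447646, minus strand: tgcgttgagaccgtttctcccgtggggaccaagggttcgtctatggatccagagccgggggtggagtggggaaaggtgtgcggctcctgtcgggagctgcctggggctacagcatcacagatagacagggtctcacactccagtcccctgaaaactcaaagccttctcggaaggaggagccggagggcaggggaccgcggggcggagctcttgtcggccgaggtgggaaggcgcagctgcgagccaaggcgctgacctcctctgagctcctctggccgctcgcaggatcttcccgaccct
Sfrp5, chr19:42202203-42202502, minus strand: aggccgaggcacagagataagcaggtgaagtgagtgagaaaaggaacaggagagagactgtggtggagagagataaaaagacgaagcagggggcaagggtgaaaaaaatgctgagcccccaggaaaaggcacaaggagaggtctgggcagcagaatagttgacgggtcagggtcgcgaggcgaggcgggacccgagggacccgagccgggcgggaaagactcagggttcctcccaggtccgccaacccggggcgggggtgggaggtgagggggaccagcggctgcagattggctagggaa
Wif1, chr10:121033754-121034053, plus strand: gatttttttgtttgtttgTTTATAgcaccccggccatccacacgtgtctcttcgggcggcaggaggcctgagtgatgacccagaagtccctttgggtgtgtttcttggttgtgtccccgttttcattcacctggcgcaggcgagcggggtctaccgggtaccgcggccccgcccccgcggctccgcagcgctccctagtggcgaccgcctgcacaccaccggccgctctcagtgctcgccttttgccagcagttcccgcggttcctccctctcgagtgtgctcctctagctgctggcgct

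Sfrp2 held the Smad letters once, from base 12 of the 300, and Wif1 held the TATA box letters once, from base 19, in both cases far before the start site and on the opposite strand. Frzb and Sfrp5 held no match. Neither pair shared a match, and no Tcf/Lef letters stood in these 4 windows. Over all 32851 mouse promoters of this length, 13.9% held the Tcf/Lef letters, 7.81% the AP-1 letters, 14.7% the Tead letters, 21.0% the Smad letters and 13.6% the TATA box letters. CpG pairs numbered 22 in Sfrp2, 20 in Frzb, 15 in Sfrp5 and 25 in Wif1, against a median of 7 over all promoters. Among the other members with an entry, Wnt11 had Tcf/Lef letters 51 bases before the start and TATA box letters 29 bases before it in 1 of its 2 promoters. These matches are descriptions of letters and not of bound sites.

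The antagonists Dkk3, Frzb, Sfrp2 and Sfrp1 rose with TAC, by 2.06 to 3.68 on the log2 scale. Dkk3 (ENSMUSG00000030772, NCBIM37 chr7:119259533-119302571, minus strand) had 72.1, 65.0, 56.6 and 47.1 normalized counts in the Sham-Veh mice and 1318, 1038, 491 and 526 in the TAC-Veh mice. The TAC-Veh values did not overlap the sham values, and replicates 1 and 2 were well above replicates 3 and 4. The rise was 3.68 on the log2 scale (SE 0.29, adjusted p = 2.06e-07).

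Frzb, also called Sfrp3 (ENSMUSG00000027004, chr2:80252127-80287782, minus strand), gave 139, 122, 106 and 96.5 in Sham-Veh and 1297, 1731, 652 and 820 in TAC-Veh. The groups were apart, with replicates 1 and 2 again the highest. It rose by 3.18 on the log2 scale (SE 0.23, adjusted p = 9.87e-08).

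Sfrp2 (ENSMUSG00000027996, chr3:83570243-83578238, plus strand) had 48.8, 36.9, 41.6 and 33.3 in Sham-Veh and 449, 355, 181 and 294 in TAC-Veh. Its TAC-Veh values were all above sham, and the rise was 2.90 on the log2 scale (SE 0.28, adjusted p = 1.27e-06). Exons of long noncoding RNAs lie opposite those of Sfrp2 and Wnt5a, and exons of a pseudogene lie opposite those of Wnt11. The authors' counting used the strand.

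Sfrp1 (ENSMUSG00000031548, chr8:24521974-24560104, plus strand), which had the highest level per kb of exon of the 10 genes in every group, had 439, 459, 428 and 375 in Sham-Veh. In TAC-Veh it had 1860, 3240, 1089 and 1487, again with no overlap. It rose by 2.06 on the log2 scale (SE 0.25, adjusted p = 1.14e-05). The calls of these 4 genes were kept in all 28 alternatives for each, among them TAC-Veh with replicates 3 and 4 only. Groups that did not overlap made up 18.2% of all tested genes in this direction and 19.1% in the other.

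Sfrp5 and Wif1 fell, and both were low. Sfrp5 (ENSMUSG00000018822, chr19:42272461-42276742, minus strand) had 14.9, 17.6, 11.5 and 23.0 normalized counts in Sham-Veh and 2.35, 1.43, 1.98 and 2.56 in TAC-Veh. All TAC-Veh libraries were below all sham libraries. These are few reads, 69 summed over the Sham-Veh libraries and 9 over the TAC-Veh libraries, which gave a depth-scaled ratio of 0.123 (exact 95% interval 0.0541 to 0.248, counting error only). The fitted log2 fold change was -2.50 (SE 0.42, adjusted p = 1.98e-04).

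Wif1 (ENSMUSG00000020218, chr10:120471016-120537706, plus strand) had 35.0, 65.0, 46.0 and 42.5 in Sham-Veh and 23.5, 23.6, 22.8 and 40.0 in TAC-Veh. TAC-Veh replicate 4 lay within the sham range and the other 3 below it. Wif1 fell by 0.76 on the log2 scale (SE 0.25, adjusted p = 0.0186). That call was lost without Sham-Veh replicate 2 (log2 fold change -0.60, adjusted p = 0.0731), with array weights (adjusted p = 0.0610) and with TAC-Veh replicates 3 and 4 only (adjusted p = 0.152), over a range of 0.00429 to 0.152 in the alternatives.

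**Figure D2:**
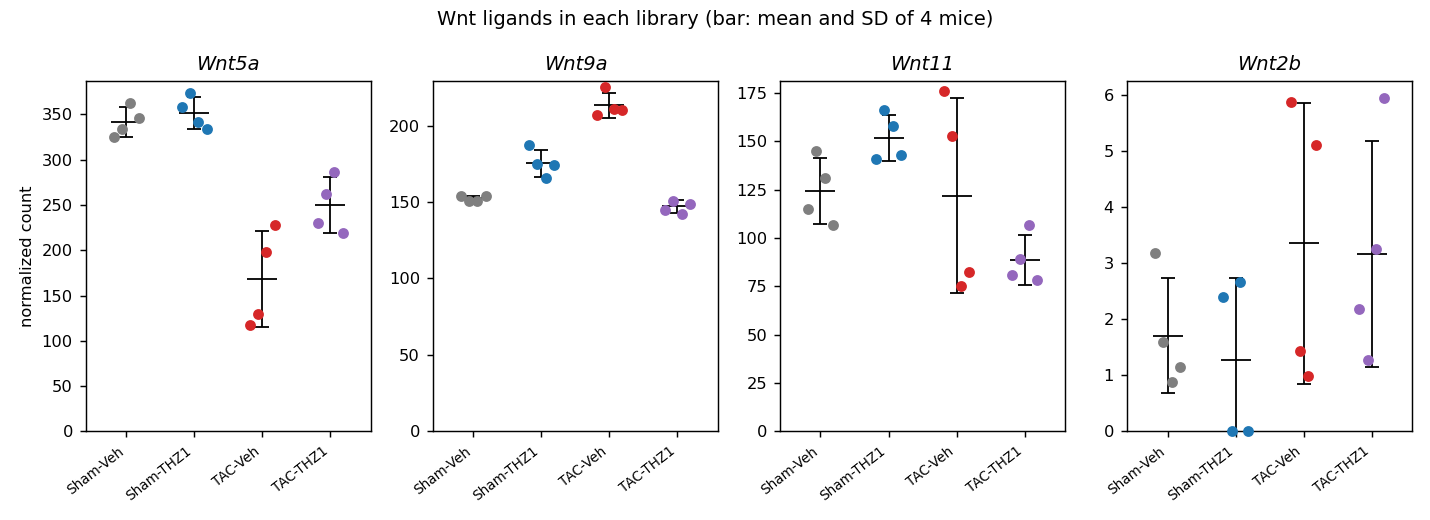
Normalized counts (vertical axes, linear, from 0) of the 4 ligands in the 16 libraries by group; points are mice, and black bars give the mean and SD of 4 mice. Wnt5a is lower in both constricted groups, Wnt9a is highest in TAC-Veh, Wnt11 is split within TAC-Veh, and Wnt2b does not pass 5.94; its SD bar in Sham-THZ1 is cut at 0.

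The ligands did not move in the same direction. Wnt5a (ENSMUSG00000021994, chr14:29317936-29340633, plus strand) had 325, 334, 363 and 346 normalized counts in Sham-Veh and 118, 130, 198 and 228 in TAC-Veh. The lowest 2 TAC-Veh values were those of replicates 1 and 2, and none reached the sham range. Wnt5a fell by 1.07 on the log2 scale (SE 0.16, adjusted p = 6.83e-05).

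Wnt9a (ENSMUSG00000000126, chr11:59120430-59147054, plus strand), a ligand known from the formation of joints, had 154, 151, 151 and 154 in Sham-Veh. It had 207, 225, 211 and 210 in TAC-Veh, a rise that was small and nearly the same in the 4 mice. It rose by 0.48 on the log2 scale (SE 0.07, adjusted p = 5.24e-05). For Wnt9a the TAC-Veh libraries with the most Nppa were not set apart from the other pair, unlike for Dkk3, Frzb and Wnt5a.

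Wnt11 (ENSMUSG00000015957, chr7:105983622-106003705, plus strand), a ligand of heart development, had 115, 145, 131 and 107 in Sham-Veh and 176, 153, 75.3 and 82.6 in TAC-Veh. Replicates 1 and 2 of TAC-Veh were above all Sham-Veh values, and replicates 3 and 4 were below them. The log2 fold change was -0.12 (95% interval -0.58 to 0.34, adjusted p = 0.693). Its direction turned without TAC-Veh replicate 3 (0.08) or replicate 4 (0.04), and with replicates 3 and 4 only it was called at -0.64 (adjusted p = 0.00397, range over the alternatives 0.00397 to 0.916).

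Wnt2b (ENSMUSG00000027840, chr3:104747723-104764627, minus strand) was close to the limit of detection. It had 3.18, 1.60, 0.884 and 1.15 normalized counts in Sham-Veh, 2.39, 0, 2.67 and 0 in Sham-THZ1, 5.88, 1.43, 0.991 and 5.11 in TAC-Veh, and 2.18, 1.27, 3.25 and 5.94 in TAC-THZ1. A library at 0 reads allows up to 3 reads. With 14 reads summed over TAC-Veh and 7 over Sham-Veh, the depth-scaled ratio was 1.89 (exact 95% interval 0.714 to 5.54), so a difference was not detectable at this depth.

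**Figure D3:**
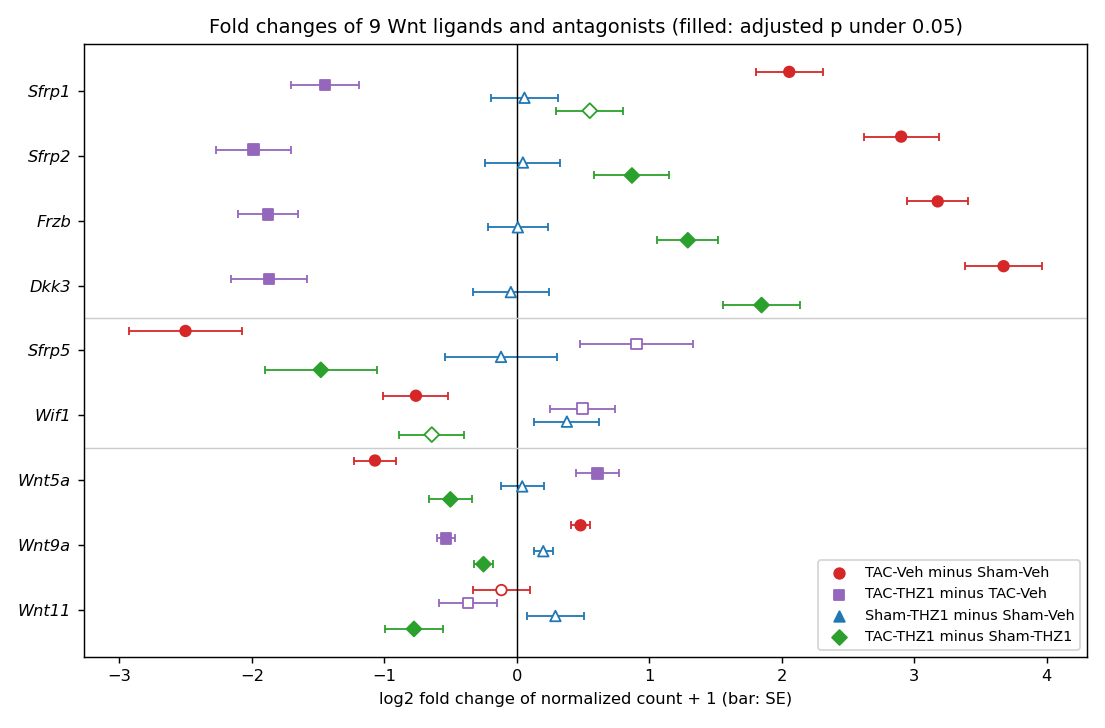
Log2 fold changes of normalized count + 1 (horizontal axis, bars are SE) of the 9 tested genes in 4 comparisons; filled symbols have an adjusted p under 0.05. The 4 antagonists at the top have TAC values of 2.06 to 3.68 and THZ1 values in constricted hearts of -1.99 to -1.45, and the values for THZ1 in sham hearts lie near 0.

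In constricted hearts THZ1 was followed by lower levels of the 4 antagonists that TAC had raised. Of the 9 tested members 6 were called between TAC-THZ1 and TAC-Veh, 1 higher and 5 lower, where 29.4% of all tested genes were called, 15.1% higher and 14.2% lower. The 2 comparisons share the TAC-Veh libraries, so a high value there pushes them in opposite directions. Leaving out any library gave 6 to 7 calls, and TAC-Veh with replicates 3 and 4 only gave 5.

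Dkk3 had 194, 130, 317 and 243 normalized counts in TAC-THZ1, all below the TAC-Veh values and all above the sham values. It fell by 1.87 with THZ1 (SE 0.29, adjusted p = 3.11e-04). Frzb had 312, 220, 326 and 290, in the same place between the groups, and fell by 1.88 (SE 0.23, adjusted p = 6.35e-05). For both genes the lowest TAC-THZ1 library was replicate 2, the one nearest to sham on the first principal component.

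Sfrp2 had 104, 39.5, 106 and 76.2 in TAC-THZ1, and replicate 2 lay inside the sham range. It fell by 1.99 (SE 0.28, adjusted p = 1.95e-04). Sfrp1 had 735, 456, 942 and 556, with replicate 2 again inside the sham range, and fell by 1.45 (SE 0.25, adjusted p = 7.83e-04). For all 4 genes the TAC-THZ1 values were below the TAC-Veh values without overlap, as for 10.5% of all tested genes, and the calls were kept in all 28 alternatives for each.

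Wnt9a also fell with THZ1 in constricted hearts, to 145, 151, 142 and 149. These values were below every TAC-Veh value, and the gene fell by 0.53 (SE 0.07, adjusted p = 1.13e-04). Wnt5a was the member that rose, to 230, 262, 287 and 219, which was 0.61 on the log2 scale (SE 0.16, adjusted p = 0.00994). TAC-THZ1 replicate 4 of Wnt5a was below TAC-Veh replicate 4, so the groups overlapped. The call was lost with TAC-Veh replicates 3 and 4 only (0.22, adjusted p = 0.165) and in a fit of the compared groups alone (adjusted p = 0.0876), over a range of 0.00112 to 0.165.

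Sfrp5, Wif1 and Wnt11 had no call. Sfrp5 had 2.18, 10.2, 8.95 and 1.98 in TAC-THZ1, with replicates 1 and 4 at the TAC-Veh level and replicates 2 and 3 just below the sham values. Its log2 fold change was 0.90 (95% interval 0.01 to 1.80, adjusted p = 0.11996), called without TAC-THZ1 replicate 4 (1.22, adjusted p = 0.0440, range 0.0440 to 0.443). Wif1 had 37.1, 54.7, 31.7 and 32.7, a log2 fold change of 0.50 (95% interval -0.02 to 1.02, adjusted p = 0.137), called without TAC-Veh replicate 4 (0.69, adjusted p = 0.0412, range 0.0412 to 0.497). Wnt11 had 80.8, 89.1, 107 and 78.2, and its log2 fold change of -0.37 (95% interval -0.83 to 0.09, adjusted p = 0.217) was called without TAC-Veh replicate 3 (-0.56, adjusted p = 0.0420, range 0.0420 to 0.567) and turned to 0.16 with replicates 3 and 4 only.

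In sham hearts no member was called for THZ1 by limma, DESeq2 or edgeR, where 0.0675% of all tested genes were called by limma. Wnt9a was the 1 member with an unadjusted p under 0.05 in limma. It had 187, 175, 166 and 174 normalized counts in Sham-THZ1, all above the Sham-Veh values of 151 to 154, with a log2 fold change of 0.20 (SE 0.07, unadjusted p = 0.0115, adjusted p = 0.625). Groups that did not overlap, higher with the drug, made up 6.29% of all tested genes here. With array weights Wnt9a was called (adjusted p = 0.0443, range over the alternatives 0.0443 to 1.00), in a fit that called 254 genes higher and 259 lower against 3 and 6 without weights.

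For the antagonists in sham hearts the differences were between -0.12 for Sfrp5 and 0.38 for Wif1. Sfrp1 had 417, 512, 457 and 389 in Sham-THZ1, Sfrp2 had 41.7, 42.3, 45.4 and 35.5, Frzb had 122, 102, 131 and 109, and Dkk3 had 58.4, 57.0, 62.8 and 52.7. Each of these overlapped its Sham-Veh values. The 95% intervals of the log2 difference were -0.48 to 0.60 for Sfrp1, -0.55 to 0.64 for Sfrp2, -0.48 to 0.49 for Frzb and -0.65 to 0.57 for Dkk3, so changes of that size were not excluded. Sfrp5 had 16.7, 11.2, 21.4 and 12.2, and Wif1 had 54.9, 51.9, 88.2 and 51.7, with replicate 3 far above the others.

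The ligands Wnt5a and Wnt11 overlapped likewise between the sham groups. Wnt5a had 358, 374, 342 and 334 in Sham-THZ1 (log2 fold change 0.04, 95% interval -0.30 to 0.38). Wnt11 had 141, 166, 158 and 143 (log2 fold change 0.29, 95% interval -0.17 to 0.75).

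The drug effect was compared directly between constricted and sham hearts by an interaction term, which asks whether THZ1 changed a gene more in one than in the other. Of the 9 tested members 5 were called, all negative, where 10.0% of all tested genes were called and 5.62% were negative. They were Sfrp2 at -2.03 (SE 0.40, adjusted p = 0.00699), Frzb at -1.89 (SE 0.32, adjusted p = 0.00377), Dkk3 at -1.83 (SE 0.41, adjusted p = 0.0127), Sfrp1 at -1.51 (SE 0.36, adjusted p = 0.0175) and Wnt9a at -0.73 (SE 0.10, adjusted p = 0.00194). Of these 5, only Wnt9a had values that did not overlap in either surgery, higher with THZ1 in sham hearts and lower with THZ1 in constricted hearts. The terms of Wnt5a (0.57, adjusted p = 0.119), Wnt11 (-0.66, adjusted p = 0.179), Sfrp5 (1.02, adjusted p = 0.287) and Wif1 (0.12, adjusted p = 0.862) were not called.

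When both surgeries had the drug, part of the pattern seen with TAC remained, while Wnt9a had the opposite direction. Between TAC-THZ1 and Sham-THZ1, 7 of the 9 tested members were called, 3 higher and 4 lower, where 24.2% of all tested genes were called, 11.4% higher and 12.8% lower. With upper quartile scaling the split over all genes moved from 1514 higher and 1706 lower to 1872 and 1371, and the members called stayed at 3 higher and 4 lower. The count fell to 3 without Sham-THZ1 replicate 1 or without TAC-THZ1 replicate 1, and to 4 without Sham-THZ1 replicate 3 or without TAC-THZ1 replicate 4.

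Dkk3 was higher by 1.85 on the log2 scale (SE 0.29, adjusted p = 8.78e-04) and Frzb by 1.29 (SE 0.23, adjusted p = 0.00175), with no overlap of the groups (15.7% of all tested genes in this direction), and both calls were kept in all 28 alternatives for each. Sfrp2 was higher by 0.87 (SE 0.28, adjusted p = 0.0351), a call that was lost in 7 of 28 alternatives, all of which left out a library. Sfrp1 had a log2 difference of 0.55 (95% interval 0.01 to 1.09, adjusted p = 0.122) and was not called. The 4 ligands and antagonists below Sham-THZ1 were Wnt11 at -0.78 (SE 0.22, adjusted p = 0.0181), Wnt5a at -0.50 (SE 0.16, adjusted p = 0.0334), Wnt9a at -0.25 (SE 0.07, adjusted p = 0.0180) and Sfrp5 at -1.48 (SE 0.42, adjusted p = 0.0201). Of these, Wnt9a had risen with TAC under vehicle (0.48), and Wnt11 had no call there. The TAC-THZ1 values of Wnt9a, 142 to 151, lay near Sham-Veh at 151 to 154, with Sham-THZ1 at 166 to 187. All 3 tested ligands were lower in constricted than in sham hearts under THZ1, and they and Sfrp5 did not overlap Sham-THZ1 (17.7% of all tested genes in this direction). Their calls depended on single libraries, and every loss came from leaving one out. The call was lost in 6 of 28 alternatives for Wnt5a (adjusted p of up to 0.0881), in 4 of 27 for Sfrp5 (up to 0.0688), and in 1 of 28 each for Wnt9a (0.0588, without Sham-THZ1 replicate 1) and Wnt11 (0.0514, without TAC-THZ1 replicate 1). Wif1 had -0.64 (adjusted p = 0.0663).

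**Figure D4:**
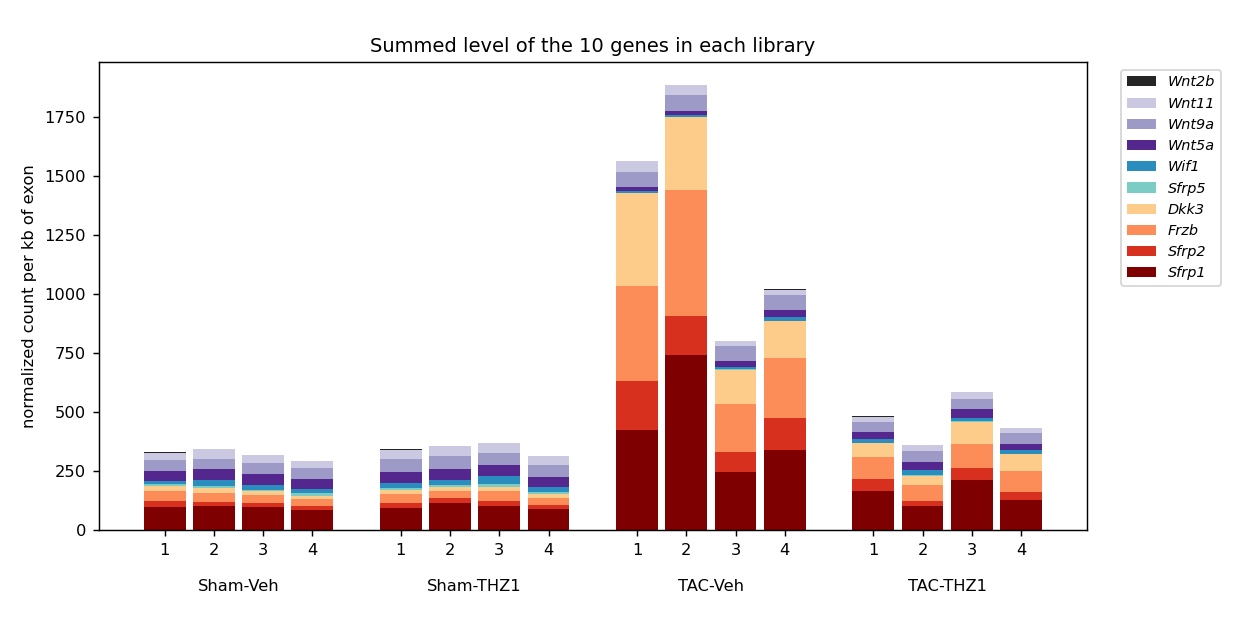
Level of each of the 10 genes in each library as normalized count per kb of exon (vertical axis, linear, from 0), stacked, with antagonists below and ligands above; horizontal axis, replicate number within each group. The antagonist part is tallest in TAC-Veh, and the ligand part stays between 95.9 and 146 in all libraries.

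Levels of different genes can be set side by side once each count is divided by the length of the exons. In Sham-Veh the order of mean level per kb was Sfrp1 (97.2 ± 8.25 SD, n = 4), Wnt9a (45.8 ± 0.503), Wnt5a (43.7 ± 2.13), Frzb (35.8 ± 5.75), Wnt11 (34.2 ± 4.71), Wif1 (19.4 ± 5.26), Sfrp2 (18.6 ± 3.10), Dkk3 (17.9 ± 3.22), Sfrp5 (8.81 ± 2.56) and Wnt2b (0.477 ± 0.288). Sfrp1 stood clear of the next gene, the genes from Wnt9a to Wnt11 overlapped their neighbours, and so did Wif1, Sfrp2 and Dkk3. Sham-THZ1 had the same gene at either end and Wnt11 (41.8 ± 3.32) ahead of Frzb (35.8 ± 3.96), with overlap.

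In TAC-Veh the 4 antagonists that rose took the first 4 places, as Sfrp1 (439 ± 214 per kb), Frzb (348 ± 151), Dkk3 (251 ± 120) and Sfrp2 (149 ± 52.1), each overlapping the next. Every ligand came after them, with Wnt9a (64.1 ± 2.43) first, apart from Sfrp2 above and Wnt11 (33.5 ± 13.9) below. Wnt5a (21.5 ± 6.81), Wif1 (11.3 ± 3.45), Sfrp5 (1.09 ± 0.260) and Wnt2b (0.938 ± 0.700) followed. In TAC-THZ1 Wnt9a (44.2 ± 1.23) stood between Dkk3 (65.8 ± 23.5) and Sfrp2 (37.8 ± 14.4) and overlapped both, while Sfrp1 (154 ± 48.9) stood apart from Frzb (88.7 ± 14.5).

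The summed level of the 6 antagonists per kb was 175 to 215 in Sham-Veh, 183 to 232 in Sham-THZ1, 691 to 1760 in TAC-Veh and 257 to 478 in TAC-THZ1. That of the 4 ligands was 120 to 128, 134 to 146, 110 to 127 and 95.9 to 110 in the same order. The ratio of the RNA of these 6 antagonists to that of these 4 ligands was 1.75, 1.67, 1.497 and 1.45 in the Sham-Veh mice. In the Sham-THZ1 mice the ratio was 1.42, 1.46, 1.69 and 1.36. It was 11.3, 13.9, 6.30 and 7.76 in TAC-Veh and 4.03, 2.48, 4.35 and 3.53 in TAC-THZ1. The sham groups overlapped and the constricted groups overlapped neither each other nor the sham groups. These sums were built from members known to have moved, so they carry no test, and RNA levels are not levels of secreted protein. Other genes of these roles are left out, so the ratio is not that of the whole pathway. Per kb, 15 other secreted modulators summed to 623 to 763 in Sham-Veh and 739 to 852 in TAC-Veh. The 15 other Wnt ligands summed to 32.2 to 44.4 and 42.6 to 62.0.

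The called markers of myofibroblasts and fibroblasts had the direction of Dkk3, Frzb, Sfrp1 and Sfrp2 with TAC, and Sfrp5 and Wif1 had the opposite one. The 8 myofibroblast markers summed to 2136 to 3090 normalized counts in Sham-Veh, 2124 to 2458 in Sham-THZ1, 30573 to 97677 in TAC-Veh and 3585 to 9464 in TAC-THZ1. With TAC 8 of these 8 were called higher, and with THZ1 in constricted hearts 7 of the 8 were called lower. Over all tested genes 21.4% were called higher and 23.6% lower with TAC, and 15.1% and 14.2% with THZ1 in constricted hearts. The same shares apply to the marker lists below. Postn, which marks activated fibroblasts, had group means of 1348, 1237, 38153 and 4061 in that order of groups. The 10 fibroblast markers summed to 60430 to 67531, 62783 to 67010, 92043 to 125224 and 64835 to 86558, with 7 called higher with TAC and 6 lower with THZ1. The means of the fibroblast lineage genes Pdgfra (1203, 1205, 1441 and 1201) and Tcf21 (194, 179, 259 and 221) were lower in TAC-THZ1 than in TAC-Veh. Neither gene was called with THZ1 in constricted hearts. The list of 10 fibroblast markers had a median log2 fold change of -0.52 in that comparison, with none called higher. The part of these markers in the change of Dkk3, Frzb, Sfrp1 and Sfrp2 was not tested.

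The cardiomyocyte markers that were called had the direction of Wnt5a, Sfrp5 and Wif1 with TAC, and that of Wnt5a with THZ1 in constricted hearts. Between TAC-THZ1 and Sham-THZ1 the median log2 fold change of these markers was 0.05, with 2 called lower and none higher, beside -0.50 for Wnt5a. Their 10 genes summed to 1584508 to 1690933 in Sham-Veh, 1615586 to 1678390 in Sham-THZ1, 904301 to 1283525 in TAC-Veh and 1408669 to 1751854 in TAC-THZ1, with 4 called lower and none higher with TAC and 6 called higher and none lower with THZ1 in constricted hearts. The 9 macrophage markers summed to 6902 to 8229, 6615 to 8184, 10439 to 12812 and 7379 to 14314 in the same order, with 5 called higher with TAC and none with THZ1 in constricted hearts. Of 8 endothelial markers 2 were called higher and 2 lower with TAC, of 9 smooth muscle and pericyte markers 1 and 4, and of 4 tested endocardial and valve markers 2 and 1. Beside them stand 21.4% higher and 23.6% lower over all tested genes.

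Schwann cell markers moved with Sfrp5 and Wnt5a in direction with TAC. Their 6 genes summed to 332 to 398 in Sham-Veh, 283 to 417 in Sham-THZ1, 105 to 157 in TAC-Veh and 107 to 239 in TAC-THZ1, and 4 of the 5 tested were called lower with TAC. Epicardial markers summed to 359 to 513, 371 to 402, 538 to 1214 and 448 to 692. Of the 6 tested 3 were called higher and none lower with TAC, and none was called with THZ1 in constricted hearts. Within TAC-THZ1, Upk3b reached 89.1 and Msln 73.8, both in replicate 2. These are 2 of the 9 listed markers, picked after their values were seen. The highest sum of the list, 1214, was in a TAC-Veh library, and its median log2 fold change with THZ1 in constricted hearts was -0.35. The 6 adipocyte markers did not sum to more than 42.5 in any library. The part of these markers in the results was not tested either.

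**Figure D5:**
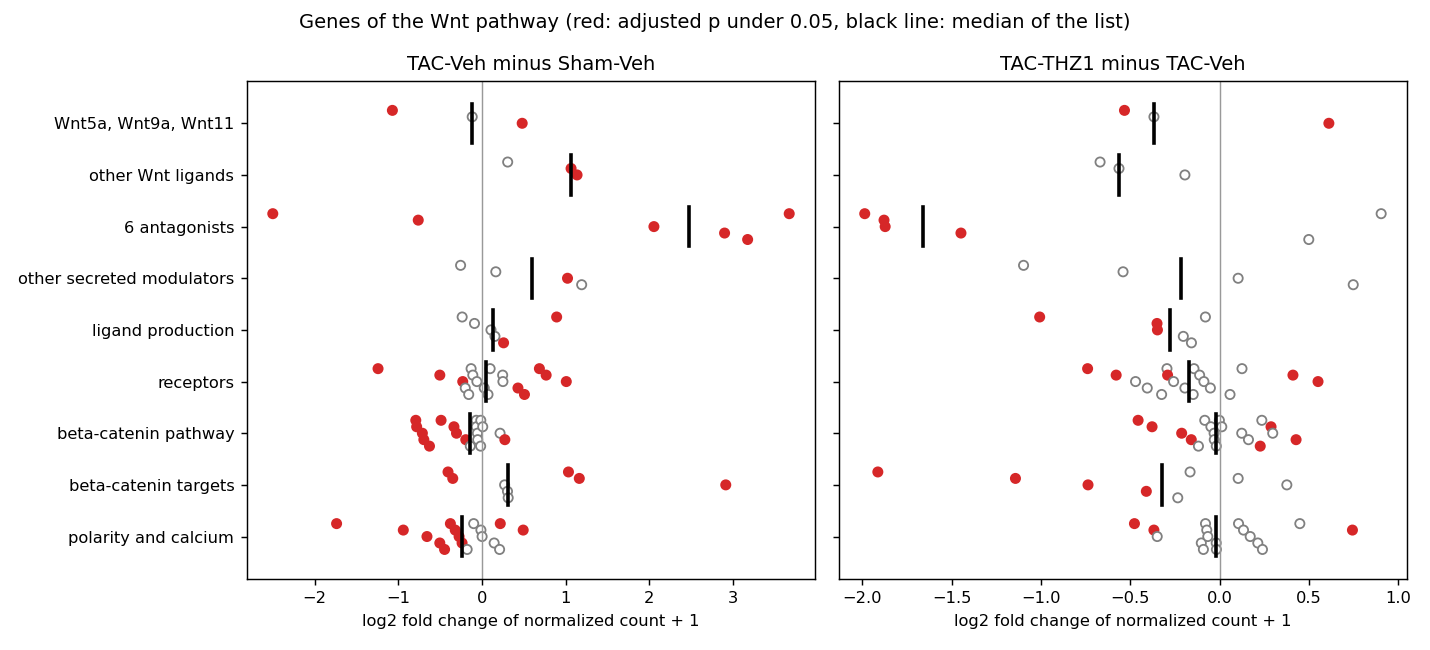
Log2 fold changes (horizontal axes) of tested genes of the Wnt pathway by role, with TAC on the left and with THZ1 in constricted hearts on the right; red points have an adjusted p under 0.05, open points do not, and black lines are list medians. The antagonists hold the widest spread, with a median of 2.48 with TAC.

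The rest of the pathway was described by role from lists of 105 genes, of which 75 were tested; the lists do not hold the 10 members. With TAC, 16 were called higher and 23 lower, which is 52.0% of those tested beside 45.0% of all genes. With THZ1 in constricted hearts 6 were higher and 16 lower, or 29.3% beside 29.4%, and in sham hearts none was called by limma. Under THZ1 in both surgeries none was higher and 24 were lower with constriction, or 32.0% beside 24.2%. For the interaction 7 were called, all negative, or 9.33% beside 10.0%. By direction, the shares over all tested genes were 21.4% higher and 23.6% lower with TAC, and 15.1% and 14.2% with THZ1 in constricted hearts. With constriction under THZ1 they were 11.4% and 12.8%, and for the interaction 5.62% were negative.

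Of 15 other Wnt ligands only 3 had enough counts to test. Wnt9b (9.45 ± 3.11 SD to 24.1 ± 12.6 normalized counts, n = 4 each) and Wnt10b (9.03 ± 2.15 to 20.0 ± 4.16) rose with TAC, by 1.14 (adjusted p = 0.0417) and 1.07 (adjusted p = 0.00768). The Wnt9b call was lost in 12 of 27 alternatives, among them the fit without TAC-Veh replicate 1 (0.92, adjusted p = 0.117) and that without replicate 2 (0.91, adjusted p = 0.130), over a range of 0.00720 to 0.50. Of 15 other secreted modulators 4 were tested, and Sfrp4, a further Frizzled-related protein, rose by 1.02 (adjusted p = 0.0334), from 8.99 ± 5.01 to 18.5 ± 7.63. That call was lost in 7 of 27 alternatives. Among 6 genes of ligand production, 2 rose with TAC and 3 fell with THZ1, beside 21.4% and 14.2% of all tested genes. Wls, which carries Wnt ligands to the cell surface, rose by 0.26 and fell by 0.35, and Gpc6, a glypican that binds ligands at the surface, rose by 0.89 (adjusted p = 7.69e-05) and fell by 1.01 (adjusted p = 1.39e-04).

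Of 18 tested receptor genes 5 rose and 3 fell with TAC, and 2 rose and 3 fell with THZ1 in constricted hearts. These counts stand near the shares over all tested genes, 45.0% called with TAC and 29.4% with THZ1 in constricted hearts. Fzd1, a Frizzled receptor, had 173, 167, 174 and 245 in Sham-Veh, 261, 552, 343 and 413 in TAC-Veh and 241, 199, 257 and 212 in TAC-THZ1. It rose by 1.01 with TAC (adjusted p = 2.94e-04) and fell by 0.74 with THZ1 (adjusted p = 0.00606). Lgr6, a receptor for R-spondins, which raise Wnt signalling, had 511, 689, 519 and 580 in Sham-Veh, 203, 222, 263 and 283 in TAC-Veh and 276, 438, 360 and 356 in TAC-THZ1. It fell by 1.24 with TAC (adjusted p = 3.17e-06) and rose by 0.55 with THZ1 (adjusted p = 0.00593). Kremen1, a receptor for Dickkopf proteins, rose by 0.43 with TAC (adjusted p = 3.37e-04) and fell by 0.29 with THZ1 (adjusted p = 0.0107).

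The coreceptor Lrp5 was called for the interaction at -0.50 (adjusted p = 0.0248). It had 1317, 1378, 1230 and 1544 in Sham-Veh and 1762, 1751, 1659 and 1792 in Sham-THZ1, against 1299, 1186, 1170 and 1620 in TAC-Veh and 1247, 1226, 1131 and 1118 in TAC-THZ1. Its sham groups did not overlap, and neither drug comparison alone was called (0.35, adjusted p = 0.397 in sham and -0.15, adjusted p = 0.239 in constricted hearts).

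Genes known as targets of beta-catenin were called in both directions with TAC. Of 8 tested, 3 rose and 2 fell with TAC, with a median of 0.31. With THZ1 in constricted hearts 4 fell and none rose, with a median of -0.32. Over all tested genes 21.4% rose and 23.6% fell with TAC, and 15.1% rose and 14.2% fell with THZ1 in constricted hearts. The 13 listed targets summed to 2299 to 2549 in Sham-Veh, 2161 to 2512 in Sham-THZ1, 2771 to 4610 in TAC-Veh and 1929 to 2775 in TAC-THZ1. Axin2, the target used most as a readout, had 89.1, 111, 102 and 100 in Sham-Veh, 124, 127, 122 and 106 in Sham-THZ1, 51.7, 90.8, 70.3 and 98.0 in TAC-Veh and 92.8, 115, 92.0 and 95.0 in TAC-THZ1. It fell by 0.41 with TAC at the edge of the threshold (adjusted p = 0.04999), and 20 of 28 alternatives lost that call (adjusted p 0.0118 to 0.185). With THZ1 in constricted hearts its difference was 0.38 (adjusted p = 0.0896).

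Nkd2, a target that also restrains the pathway, moved like the 4 antagonists. It had 75.3, 41.7, 49.5 and 56.3 in Sham-Veh, 415, 991, 249 and 296 in TAC-Veh and 111, 77.7, 155 and 110 in TAC-THZ1, with no overlap between these groups. It rose by 2.92 with TAC (adjusted p = 4.25e-06), fell by 1.91 with THZ1 (adjusted p = 5.98e-04) and had an interaction of -2.02 (adjusted p = 0.0135). Apcdd1, a membrane inhibitor of Wnt signalling, rose by 1.16 (adjusted p = 4.59e-05) and fell by 1.14 (adjusted p = 2.44e-04), with an interaction of -1.29 (adjusted p = 0.00482). Myc rose by 1.04 (adjusted p = 0.00234) and fell by 0.74 (adjusted p = 0.0295), and its rise was not called with TAC-Veh replicates 3 and 4 only (0.55, adjusted p = 0.0636).

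Of 19 beta-catenin pathway genes 1 rose and 9 fell with TAC, with a median of -0.14. Over all tested genes 21.4% rose and 23.6% fell with TAC. Of 17 tested genes of the polarity and calcium branch, in which Wnt5a and Wnt11 act, 2 rose and 9 fell with TAC, with a median of -0.24 beside -0.00302 over all tested genes. Celsr2, an adhesion receptor of cell polarity, had 202, 286, 216 and 288 in Sham-Veh, 62.3, 50.8, 75.3 and 117 in TAC-Veh and 79.7, 172, 70.0 and 102 in TAC-THZ1. It fell by 1.74 with TAC (adjusted p = 5.03e-05), with -1.45 left under THZ1 in both surgeries (adjusted p = 0.00157). Prickle2 and Nfatc4 were called for the interaction, at -0.50 (adjusted p = 0.0185) and -0.72 (adjusted p = 0.00661).

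The genes whose log2 levels ran closest to each member over the 16 libraries were taken among 10317 genes averaging 100 normalized counts or more, by Pearson's r, as a description with no test, since all points share the 4 groups and their libraries. For Frzb they were Ltbp2 (0.995), Thbs4 (0.993) and Bgn (0.992), and for Dkk3 they included Thbs4 (0.991) and Frzb itself (0.987). Ltbp2, Thbs4 and Bgn encode proteins of the extracellular matrix. For Sfrp1 they were Rtn4 (0.985), Serpine2 (0.980) and Pcolce (0.979), and for Sfrp2 Colec12 (0.988), Lbp (0.985) and Cpne8 (0.985). Pcolce enhances the processing of procollagen.

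For the other tested members the neighbours were different genes. Wnt5a had Mmp15 (0.981), Pde4a (0.980) and Rprd1a (0.978), Sfrp5 had Klhl9 (0.964), Smek1 (0.963) and Cap2 (0.954), and Wif1 had Aldh7a1 (0.909), Usp36 (0.909) and Mepce (0.887). Wnt9a had Grk5 (0.920), a kinase of G protein-coupled receptors, Fam171a1 (0.910) and Atp8b2 (0.903). Wnt11, with its divided TAC-Veh group, had the lowest values, for Acsl4 (0.873), Rlim (0.846) and Ddi2 (0.839).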

How the data were processed

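RNA-seq had been done on ventricle pieces of 16 mice, with libraries from a stranded mRNA kit. The authors aligned reads to mm9 with TopHat 2.1.1, counted them per GENCODE gene with htseq-count in reverse-stranded mode, and normalized all mouse libraries in one DESeq2 run. The deposited signal is thus a count divided by a size factor. All 22372 gene identifiers matched the GENCODE annotation of NCBIM37 (the same assembly), from which positions and exon lengths were taken, and 4484 genes were at 0 throughout. Dividing a library by the value of 1 read gave whole numbers for 100% of its values (within 0.01), so reads could be recovered, with size factors of 0.749 to 1.40. These reads lie in protein-coding genes and are not all reads sequenced. The labels give no sequencing batch, so batches were not compared.

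limma 3.58.1 in R 4.3.3 was run on log2(normalized count + 1) of the 13331 genes that passed the filter, with 1 mean per group, no covariates and a variance trend, and p-values were adjusted by Benjamini-Hochberg over those genes in each comparison. The tests are two-sided, intervals are 95%, and replicates are separate mice. DESeq2 1.42.0 and edgeR 4.0.16 (quasi-likelihood) were run on the recovered reads. Other alternatives were pseudocounts of 0.5 and 5, no filter, a mean of at least 50, upper quartile and TMM scaling, the compared groups alone, array weights, a block for the replicate number, an adjusted p under 0.01, the fold thresholds of the study, and leaving out each library. A last alternative, TAC-Veh with replicates 3 and 4 only, was chosen after seeing the data. Simulated data with known changes were used to test the scripts.

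The 10 genes and the gene lists were chosen with earlier results of these data known. Named beside the members were Axin2, list genes called and moved by at least 1 (log2) with TAC or 0.89 with THZ1 in constricted hearts, list genes called for the interaction, and 3 like genes per member, of which 1 is not reported here. The genes Wls, Nppa, Postn, Pdgfra, Tcf21, Upk3b, Msln, Myl4, Myl7, Sln, Stard10 and Bmp10 were named from the lists after their values were seen. Summaries and figures used pandas 2.3.3, NumPy 2.4.6 and Matplotlib 3.10.9 under Python 3.11.15.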

Additional observations from a re-analysis of the deposited data

Results flagged for a closer look

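In 8 of 100 groups of 4 mice checked over 25 genes, 1 library stood apart from the other 3 by Dixon's criterion, which chance alone reaches in about 1 group in 20. Wif1 had 88.2 normalized counts in Sham-THZ1 replicate 3 (others 51.7 to 54.9) and 40.0 in TAC-Veh replicate 4 (others 22.8 to 23.6). Gpc6 had 518 in Sham-THZ1 replicate 3 (others 429 to 443). Fzd1 had 244.7 and Nfatc4 164 in Sham-Veh replicate 4 (others 167 to 174 and 144 to 146). Axin2 had 115 in TAC-THZ1 replicate 2 (others 92.0 to 95.0), and Prickle2 had 224 in TAC-THZ1 replicate 4 (others 195 to 196). Apcdd1 had 69.0 in Sham-Veh replicate 2 (others 80.4 to 82.2).

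The effect of THZ1 differed between constricted and sham hearts by the interaction term of limma for 12 of these genes, each with a lower value in constricted hearts. Over all tested genes 10.0% were called for it. A call for the interaction was among the rules that named the 7 genes that are not members, so the count was fixed in part by that choice. Among members these were Sfrp2 (-2.03), Frzb (-1.89), Dkk3 (-1.83), Sfrp1 (-1.51) and Wnt9a (-0.73). Among other genes of the pathway they were Nkd2 (-2.02), Apcdd1 (-1.29), Gpc6 (-0.85, adjusted p = 0.0136), Nfatc4 (-0.72), Prickle2 (-0.50), Lrp5 (-0.50) and Kremen1 (-0.42, adjusted p = 0.0260), all on the log2 scale. Those of Lrp5 and Kremen1 were lost in 2 and 5 of 27 alternatives.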

How the results depend on the processing

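Among the results on single genes, 1711 alternatives kept direction and side of the threshold, 72 lost the call, 15 gained it and 21 turned the direction. Members called lay at 7 to 8 with TAC, 6 to 7 for THZ1 in constricted hearts, 0 for THZ1 in sham hearts, 3 to 8 for TAC under THZ1 and 5 to 6 for the interaction when a library was left out. An adjusted p under 0.01 left 2 members for TAC under THZ1 and 3 for the interaction, and array weights gave 1 in sham hearts. Same-numbered libraries deviated together in 2 of 24 pairs (r of -0.43 to 0.16, a pair counting above 0.1), so the numbers were not taken as pairs; with the replicate block the counts of members called were 8, 6, 0, 7 and 5 in the order above, as without it. In sham hearts Frzb went to -0.00462 with upper quartile scaling, -0.00501 with array weights, -0.0028 with DESeq2 and -0.0149 with edgeR. With a library left out, the sham differences ran from -0.0741 to 0.0997 for Frzb, -0.0128 to 0.119 for Sfrp1, -0.0360 to 0.143 for Sfrp2, -0.283 to 0.0398 for Sfrp5 and -0.155 to 0.0469 for Dkk3, Wnt11 with TAC ran from -0.325 to 0.0811, and the interaction of Wif1 from -0.0506 to 0.309. With TAC-Veh replicates 3 and 4 only, Wnt11 with THZ1 in constricted hearts turned from -0.37 to 0.156 and the Wif1 interaction -0.0541. The cause was not tested. A mean of at least 50 removes Sfrp5 and Wif1, which then have no value. Wnt2b and Sfrp5 are limited by depth, with at most 6 and 22 reads in a library.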

Other observations

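The make-up of the set by share, which the sums do not show, also differed between groups. As a percentage of the summed antagonist level per kb, Sfrp1 took 49.2 ± 1.33 (SD, n = 4) with sham and vehicle, 49.1 ± 4.30 with sham and THZ1, 36.3 ± 5.18 with TAC and vehicle and 41.6 ± 3.35 with TAC and THZ1. Dkk3 took 9.02 ± 0.916, 8.32 ± 0.346, 20.8 ± 4.65 and 17.8 ± 3.28 in the same order, and Frzb took 18.0 ± 1.63, 17.4 ± 1.78, 28.8 ± 1.17 and 24.7 ± 2.51. Wif1 took 9.81 ± 2.28, 12.1 ± 2.42, 1.10 ± 0.598 and 4.86 ± 2.67. Within TAC-Veh the share of Frzb stayed between 27.9 and 30.4 although its counts ran from 652 to 1731.

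As a percentage of the summed ligand level, Wnt5a took 35.2 ± 1.60, 32.2 ± 0.483, 18.3 ± 6.77 and 31.4 ± 1.89, and Wnt9a took 36.9 ± 1.80, 37.7 ± 1.95, 53.5 ± 3.69 and 43.7 ± 3.40. Wnt2b took at most 1.73 in any library. Shares add up to a fixed total, so a rise of one gene lowers the others, and no test was made on them.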
